A study of Mus musculus with 6 samples.

Results

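The TNF superfamily genes described here are 10 genes of mouse bone marrow-derived macrophages, 5 encoding ligands (Tnf, Tnfsf9, Tnfsf12, Tnfsf13 and Tnfsf13b) and 5 encoding receptors (Tnfrsf1a, Tnfrsf1b, Tnfrsf9, Cd40 and Fas). They were taken by gene symbol from tables of 26835 genes, and each symbol matched 1 gene. The macrophages were primary wild-type cells of BALB/c mice aged between 5 and 8 weeks, grown from marrow for 6 days with 10% serum and M-CSF (25 ng/ml), the growth factor that drives macrophage outgrowth. One group of 3 libraries came from cells that received 10 µg of vesicles released by K7M2, a mouse osteosarcoma cell line, for 24 h (K7M2-EV). The other 3 libraries came from cells given PBS, a salt solution without vesicles. The submitters describe the libraries of a group as biological replicates from independent experiments. Levels are in FPKM, which corrects a gene's fragments for its length and for sequencing depth, so that different genes can be set side by side. RNA was the only readout.

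Ligands of the TNF superfamily are membrane proteins that act as trimers, on the cell that makes them or after being shed, and their receptors pass the signal on through adaptor proteins. Some receptors, among them those encoded by Tnfrsf1a and Fas, carry a death domain and can start cell death. Those encoded by Tnfrsf1b, Tnfrsf9 and Cd40 recruit TRAF adaptors and can activate NF-κB, which is not particular to them. Macrophages are a main source of TNF in inflammation. They use CD40 to receive help from T cells, and they supply B cells with the survival factors APRIL and BAFF, the products of Tnfsf13 and Tnfsf13b.

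With vesicles Tnf RNA was about 14.2 times as high as with PBS and Cd40 RNA about 14.0 times as high, as ratios of group mean FPKM, while Fas and Tnfrsf1b were 4.21 and 2.43 times as high. Tnfsf12 and Tnfsf13 were lower with vesicles, at 0.345 and 0.133 times their PBS levels. Tnfrsf1a, which encodes the widely expressed TNF receptor, stayed within a narrow range of 31.3 to 35.4 FPKM over all 6 libraries. Tnfsf9 overlapped between the groups, and Tnfsf13b and Tnfrsf9 were too low to test. Of the 10 genes, 8 had at least 1 FPKM in at least 3 libraries and were tested, with 4 called higher, 2 called lower and 2 not called (limma on log2(FPKM + 1), Benjamini-Hochberg adjusted p under 0.05). Of all 13009 genes tested, 54.0% were called, 18.4% higher and 35.6% lower. Of the 10 genes, 5 were higher and 4 lower in every vesicle library than in any PBS library, as were 21.8% and 42.0% of all genes tested. Cd40 passed that filter through its vesicle libraries alone and Tnfsf13 through its PBS libraries alone, so both had to differ between the groups to be tested in this way. Across all genes tested the median change was -0.12 on the log2 scale, so the called changes leaned to lower values, 2395 higher and 4631 lower. After median-of-ratios scaling that median was -0.0024, with 3445 higher and 3376 lower.

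**Figure D1:**
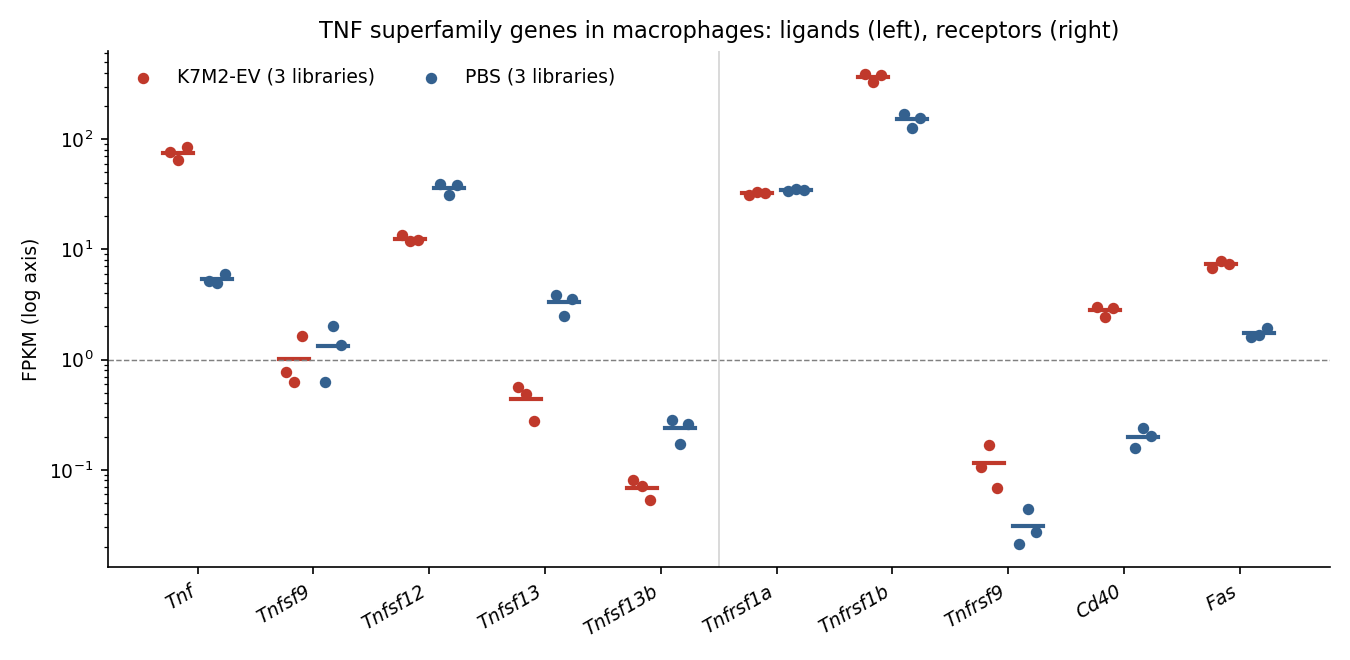
FPKM on a log axis of the 10 TNF superfamily genes in 3 K7M2-EV libraries (red, left of each pair) and 3 PBS libraries (blue), with points for libraries and lines for group means. The dashed line marks 1 FPKM. Tnf, Cd40, Fas and Tnfrsf1b lie higher with vesicles, Tnfsf12 and Tnfsf13 lower, and Tnfrsf1a stays between 31.3 and 35.4 FPKM.

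The stretch before the transcription start is shown for the 3 genes that rose and have an entry in the promoter table used here, and for Tnfrsf1a, which was not called, so that their letters can be compared. The sequences are RefSeq's on GRCm38.p6, 250 bases up to the start, 5′ to 3′ on the strand of the gene. Capitals mark a match to any of 4 motifs searched on both strands, and no 2 matches overlapped in these 4 stretches. The motifs were TATAAA (the TATA box), TGANTCA (AP-1), GAAA, any 2 bases and GAAA (the core of the interferon-stimulated response element) and the NF-κB consensus.
Tnf, chr17:35202008-35202257, minus strand: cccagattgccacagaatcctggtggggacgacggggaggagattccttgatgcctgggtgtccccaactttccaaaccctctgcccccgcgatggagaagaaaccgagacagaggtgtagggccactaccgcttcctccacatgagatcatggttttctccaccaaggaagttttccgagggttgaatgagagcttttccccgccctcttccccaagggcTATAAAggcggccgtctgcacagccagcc
Tnfrsf1b, chr4:145246871-145247120, minus strand: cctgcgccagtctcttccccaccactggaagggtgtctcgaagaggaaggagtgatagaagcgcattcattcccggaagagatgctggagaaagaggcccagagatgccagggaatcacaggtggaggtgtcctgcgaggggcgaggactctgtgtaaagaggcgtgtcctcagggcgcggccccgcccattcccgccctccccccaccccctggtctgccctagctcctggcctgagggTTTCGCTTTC
Fas, chr19:34290409-34290658, plus strand: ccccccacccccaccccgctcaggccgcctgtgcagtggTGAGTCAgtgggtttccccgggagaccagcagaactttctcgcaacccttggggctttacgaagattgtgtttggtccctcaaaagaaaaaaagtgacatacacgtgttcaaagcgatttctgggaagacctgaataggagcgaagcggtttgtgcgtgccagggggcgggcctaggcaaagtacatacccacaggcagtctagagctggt
Tnfrsf1a, chr6:125349473-125349722, plus strand: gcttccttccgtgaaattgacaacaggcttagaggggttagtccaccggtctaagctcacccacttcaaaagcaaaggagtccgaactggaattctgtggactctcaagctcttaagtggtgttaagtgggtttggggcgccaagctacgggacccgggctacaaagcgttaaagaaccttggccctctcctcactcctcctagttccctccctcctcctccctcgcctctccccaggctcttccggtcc
The Tnfrsf1a stretch lies inside its GENCODE gene model, which begins at 125349362, since RefSeq places that start further in. The 4 stretches differed in what they held. Tnf had the TATA box from 29 to 24 bases before its start, and 12.4% of the 32851 promoter entries of the same length had a match. Shares here and below count a match at any place in the 250 bases, on either strand. Tnfrsf1b had the interferon-response core on the opposite strand in the last 10 bases before its start, and 2.98% of entries had this core. Fas had an AP-1 match from 211 to 205 bases before its start, and 6.75% of entries had an AP-1 match. Tnfrsf1a had no match. The NF-κB consensus, found in 3.90% of entries, was in none of these 4 stretches. It was present before the second of 2 annotated starts of Tnfrsf9, with an AP-1 match from 15 to 9 bases before that start. Tnfsf13, which fell, had an AP-1 match from 133 to 127 bases before its start. Tnfsf13b, lower in every vesicle library, had an AP-1 match (127 to 121) and an interferon-response core (16 to 7) before its second start. The matches given for Tnfrsf9, Tnfsf13 and Tnfsf13b also lie inside the GENCODE gene models. On their own strands these models begin at 150914562, 69685784 and 10006467. Matches were found both for genes that rose and for genes with lower values with vesicles, and whether they bear on the changes was not tested. These are matches of letters in a short window, not sites shown to be bound. Of the 10 genes, 7 were in the table, and Tnfsf9, Tnfsf12 and Cd40 were not.

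Tnf encodes the founding cytokine of the family. It lies on chromosome 17 at 35199381 to 35202007 of GRCm38, on the minus strand. It stood at 76.4, 65.2 and 85.4 FPKM in K7M2-EV replicates 1 to 3, against 5.15, 4.91 and 5.97 FPKM in PBS replicates 1 to 3. All 3 vesicle libraries lay far above all 3 PBS libraries, and replicate 2 was the lowest of each group. Its fitted log2 fold change was 3.59 ± 0.113 (SE, limma, adjusted p = 4.13e-06), rank 46 among 13009 genes ordered from the largest rise. The PBS values rested on about 172 to 251 reads per library and the vesicle values on about 2370 to 3368. Without replicate 2 of both groups the log2 fold change was 3.64.

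Tnfsf9 encodes the ligand of the co-stimulatory receptor CD137, the product of Tnfrsf9. It was low, at 0.777, 0.623 and 1.62 FPKM with vesicles and 0.629, 2.02 and 1.36 FPKM with PBS. The groups overlapped, and both had a wide spread, with a coefficient of variation of 53.4% with vesicles and 52.1% with PBS. These values rested on 23, 17 and 48 reads with vesicles and on 17, 53 and 43 reads with PBS. Its log2 fold change was -0.21 with a 95% interval from -0.86 to 0.45 (limma, adjusted p = 0.55), so that changes of moderate size in either direction lie inside the interval. Its sign turned with quantile normalization (0.02) and without PBS replicate 2 (0.0012), and without replicate 2 of both groups it was 0.14. An antisense-strand neighbour, the noncoding gene Gm11110, covers 14.9% of the exon bases of Tnfsf9, and whether counting used strand is not stated in these sources. Gm11110 was at 0.561 ± 0.125 FPKM with vesicles and 0.594 ± 0.170 FPKM with PBS (SD, n = 3 each).

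Tnfsf12 encodes TWEAK, a ligand that signals through the receptor encoded by Tnfrsf12a. It was at 13.6, 11.8 and 12.1 FPKM with vesicles, against 39.0, 31.5 and 38.3 FPKM with PBS. The lowest PBS library was still more than double the highest vesicle library. The log2 fold change was -1.46 ± 0.0989 (SE, limma, adjusted p = 5.87e-05), rank 428 from the largest fall. In PBS cells Tnfsf12 was the most abundant of the 5 ligand genes, and with vesicles Tnf was.

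Tnfsf13 encodes APRIL, which supports B cells and plasma cells. It was at 0.564, 0.490 and 0.274 FPKM with vesicles and 3.87, 2.51 and 3.58 FPKM with PBS. Every PBS library lay above every vesicle library, by at least several times. These values rested on an estimated 35, 28 and 17 reads with vesicles and 219, 138 and 237 reads with PBS. The log2 fold change was -1.57 ± 0.146 (SE, limma, adjusted p = 0.000225). With a pseudocount of 0.1 in place of 1 it was -2.67, since the pseudocount damps the change of a gene this low.

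Tnfsf12 and Tnfsf13 lie next to each other on the minus strand of chromosome 11, at 69686250 to 69695849 and 69682846 to 69685784 of GRCm38. The table holds a further gene, Tnfsfm13, a read-through locus whose exons span both. On the GENCODE models it covers 48.3% of the exon bases of Tnfsf12 and 60.0% of those of Tnfsf13. No source used here says how reads in the shared exons were assigned, so the split between these 3 genes is uncertain. Tnfsfm13 itself was at 2.44, 3.79 and 3.35 FPKM with vesicles and 19.95, 15.7 and 15.7 FPKM with PBS. It fell as well, with a log2 fold change of -2.12 ± 0.148 (SE, limma, adjusted p = 6.69e-05). All 3 gene rows that share these exons were thus lower in every vesicle library than in any PBS library. The antisense gene Tnfsf13os, which covers 13.5% of the exon bases of Tnfsf13, was at 0.127 ± 0.0422 FPKM with vesicles and 0.802 ± 0.286 FPKM with PBS (SD, n = 3 each).

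**Figure D2:**
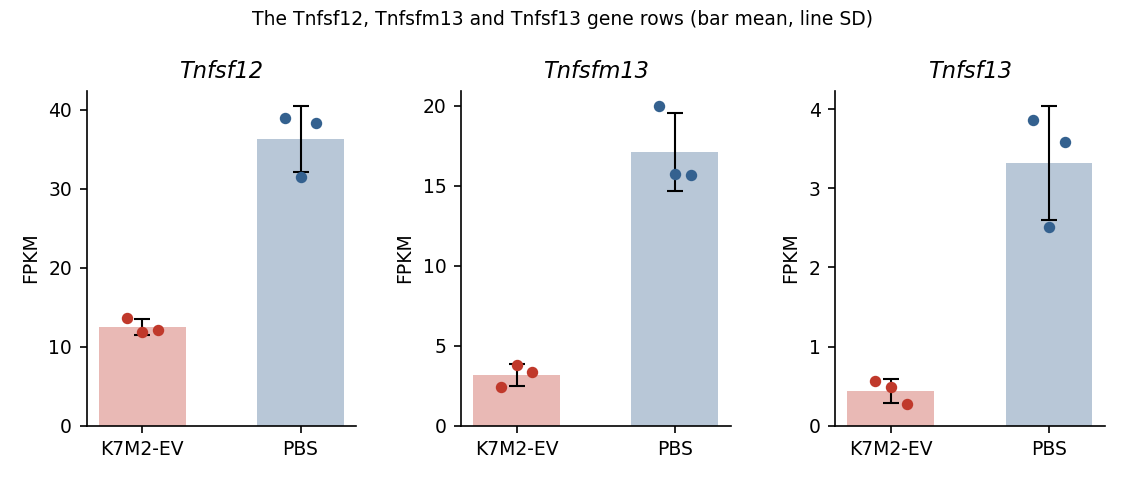
FPKM of Tnfsf12, the read-through gene Tnfsfm13 and Tnfsf13, each on its own axis from 0, in K7M2-EV (red, left) and PBS (blue, right) libraries. Bars are means, lines SD and points the 3 libraries of a group. In each panel all vesicle libraries lie below all PBS libraries, for Tnfsf12 between 11.8 and 13.6 FPKM against 31.5 to 39.0 FPKM.

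Tnfsf13b encodes BAFF, a B-cell survival factor. It was below the filter, at 0.0804, 0.0706 and 0.0536 FPKM with vesicles and 0.285, 0.173 and 0.258 FPKM with PBS. The vesicle libraries held an estimated 21, 17 and 14 reads of it and the PBS libraries 68, 40 and 72. The groups did not overlap. An exact two-sided permutation test over the 6 libraries gave p = 0.1, the smallest p that 3 against 3 libraries allow. When no filter was applied its log2 fold change was -0.21 (limma, adjusted p = 0.0165). Tnfsf13 and Tnfsf13b thus both had lower values in every vesicle library than in any PBS library, as did 42.0% of all genes tested.

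Among the receptors, Tnfrsf1b was the most abundant gene of the family in all 6 libraries. It encodes the second TNF receptor, which is prominent on leukocytes, binds membrane-bound TNF well and has no death domain. It was at 388, 328 and 384 FPKM with vesicles and 170, 127 and 156 FPKM with PBS. The groups were well apart, with replicate 2 again the lowest of each. It rose by 1.28 ± 0.125 on the log2 scale (SE, limma, adjusted p = 0.000279), rank 453 from the largest rise. The gene lies on chromosome 4 at 145213463 to 145246870 of GRCm38, on the minus strand.

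Tnfrsf1a encodes the TNF receptor with a death domain that most cell types carry. It was at 31.3, 33.3 and 32.6 FPKM with vesicles and 33.6, 35.4 and 34.4 FPKM with PBS. The vesicle libraries were all slightly lower, by less than the change of the median gene. With the deposited scaling the log2 fold change was -0.09 with a 95% interval from -0.21 to 0.04 (limma, adjusted p = 0.195). The direction depended on the scaling, with 0.06 after median-of-ratios scaling (adjusted p = 0.355) and -0.16 after quantile normalization (adjusted p = 0.0348), which is a call. Its spread between libraries was small, with a coefficient of variation of 3.13% with vesicles and 2.51% with PBS.

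The ratio of the 2 TNF receptor genes within a library is left unchanged by any single scaling factor per library. Tnfrsf1b was 12.4, 9.84 and 11.8 times as high as Tnfrsf1a with vesicles, and 5.06, 3.59 and 4.52 times with PBS. The ratio averaged 11.3 ± 1.33 with vesicles and 4.39 ± 0.743 with PBS (SD, n = 3 each), and the groups did not overlap. Its mean log2 was higher by 1.38 with vesicles (exact two-sided permutation test, p = 0.1, the smallest p this design allows). Leaving out any 1 library gave differences from 1.24 to 1.49. Within each group replicate 2 had the lowest ratio.

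**Figure D3:**
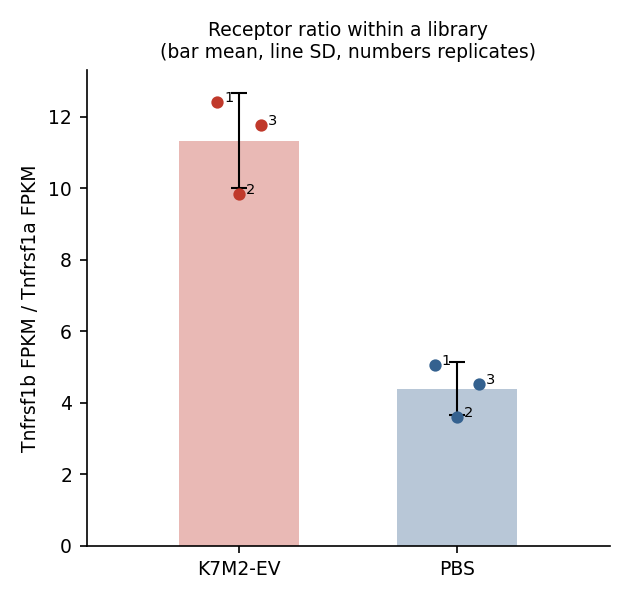
Ratio of Tnfrsf1b FPKM to Tnfrsf1a FPKM within each library, for K7M2-EV (red, left) and PBS (blue, right), on an axis from 0. Bars are means, lines SD and numbered points the replicates. The vesicle libraries run from 9.84 to 12.4 and the PBS libraries from 3.59 to 5.06.

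Cd40 encodes the receptor through which activated T cells license macrophages and dendritic cells. It lies on chromosome 2 at 165055627 to 165072948 of GRCm38, on the plus strand. It was at 3.00, 2.45 and 2.93 FPKM with vesicles and 0.156, 0.237 and 0.204 FPKM with PBS. The libraries of the groups were more than 10 times apart at their nearest. They held an estimated 400, 301 and 390 reads with vesicles and 19, 28 and 29 reads with PBS. The log2 fold change was 1.66 ± 0.0806 (SE, limma, adjusted p = 1.70e-05) with a pseudocount of 1, and 3.28 with a pseudocount of 0.1.

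Fas encodes a death receptor. It lies on chromosome 19 at 34290666 to 34327772 of GRCm38, on the plus strand. It was at 6.78, 7.88 and 7.36 FPKM with vesicles and 1.62, 1.67 and 1.95 FPKM with PBS. The spread within a group was small beside the gap between the groups. The values rested on 294, 315 and 319 reads with vesicles and 64, 64 and 90 reads with PBS. It rose by 1.60 ± 0.0769 on the log2 scale (SE, limma, adjusted p = 1.60e-05), rank 308 from the largest rise.

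Tnfrsf9 encodes CD137, a co-stimulatory receptor best known from activated T cells. It was barely detected, at 0.107, 0.169 and 0.0680 FPKM with vesicles and 0.0213, 0.0439 and 0.0273 FPKM with PBS. This amounted to an estimated 11, 16 and 7 reads with vesicles and 2, 4 and 3 reads with PBS. All vesicle libraries were higher, but at so few reads the size of a difference is poorly known (exact two-sided permutation test, p = 0.1). When no filter was applied it was not called (limma, log2 fold change 0.11, adjusted p = 0.0696). Its ligand gene Tnfsf9 and Tnfrsf9 itself were thus both at or below 2.02 FPKM in all libraries.

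**Figure D4:**
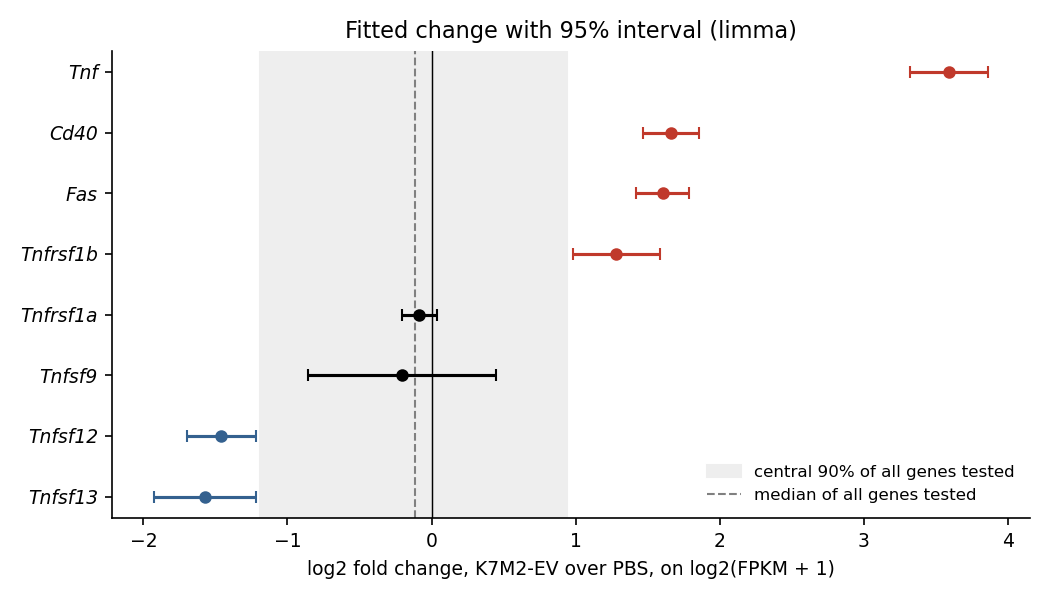
Log2 fold change, K7M2-EV over PBS, of the 8 genes tested, with 95% intervals from limma (red called higher, blue called lower, black not called). The grey band holds the central 90% of all 13009 genes tested, from -1.19 to 0.94, and the dashed line is their median, -0.12. Tnf, at 3.59, stands far to the right of the band, and Tnfrsf1a, at -0.09, lies beside the median.

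The order of the levels differed between the groups. With vesicles it ran Tnfrsf1b, Tnf, Tnfrsf1a, Tnfsf12, Fas, Cd40, Tnfsf9, Tnfsf13, Tnfrsf9 and Tnfsf13b, and of these neighbours only Tnfrsf9 and Tnfsf13b overlapped in their libraries. With PBS it ran Tnfrsf1b, Tnfsf12, Tnfrsf1a, Tnf, Tnfsf13, Fas, Tnfsf9, Tnfsf13b, Cd40 and Tnfrsf9. There Tnfsf12 overlapped with Tnfrsf1a, Fas with Tnfsf9 and Tnfsf13b with Cd40. Of the summed FPKM of the 10 genes, Tnf made up 15.1 ± 0.955% with vesicles and 2.29 ± 0.238% with PBS (SD, n = 3 each). Tnfsf12 made up 2.51 ± 0.185% with vesicles and 15.5 ± 0.317% with PBS. Tnfrsf1b took the largest share in every library, 73.5 ± 0.940% with vesicles and 64.4 ± 2.52% with PBS.

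The other ligand genes of the family were barely expressed. Of 10 with values, 1 was tested, Ltb, which encodes lymphotoxin β. It was at 1.49, 1.13 and 1.01 FPKM with vesicles and 0.170, 0.108 and 0.101 FPKM with PBS, and passed the filter through the vesicle libraries alone. Its log2 fold change was 0.97 (limma, adjusted p = 0.000289). The other 9 did not exceed 0.608 FPKM in any library.

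Of 22 other receptor genes of the family with values, 11 were tested, with 3 higher, 5 lower and 3 not called, and a median log2 fold change of -0.34. Of all 13009 genes tested, 18.4% were higher and 35.6% lower. After median-of-ratios scaling 3 were higher and 3 lower, and without K7M2-EV replicate 1 or 3 there were 3 lower. Among all genes tested that scaling gave 3445 higher and 3376 lower, and quantile normalization 3135 higher and 3282 lower. Tnfrsf14, whose product is the herpesvirus entry mediator, a receptor for lymphotoxin-related ligands and for BTLA, led the rises. It was at 28.8, 24.8 and 29.6 FPKM with vesicles and 5.60, 5.24 and 5.95 FPKM with PBS, a log2 fold change of 2.12 (limma, adjusted p = 6.98e-06). Ltbr, the lymphotoxin β receptor gene, rose by 0.31. Relt rose by 0.61, a call lost without replicate 1 of both groups (limma, adjusted p = 0.0545). Tnfrsf26 fell by 1.13. Tnfrsf12a, the receptor gene for the product of Tnfsf12, was at 8.19, 15.2 and 9.66 FPKM with vesicles and 19.9, 35.0 and 19.4 FPKM with PBS, a log2 fold change of -1.09 (limma, adjusted p = 0.0187). Both groups were highest in replicate 2. That call was lost without K7M2-EV replicate 1 (limma, adjusted p = 0.0610) or 3 (0.0614). Tnfrsf23 had -0.39, a call lost without K7M2-EV replicate 1 or 3 or PBS replicate 2 or 3 (limma, adjusted p = 0.118 to 0.14) and after either other scaling. It was also lost with a pseudocount of 0.1 (adjusted p = 0.0509 in limma), with no filter (0.0875) and with a filter on the mean (0.0504), and its groups overlapped. Tnfrsf13b, a receptor gene for the products of Tnfsf13 and Tnfsf13b that was picked with its values in view, was at 7.57, 7.29 and 7.48 FPKM with vesicles and 6.94, 6.16 and 8.03 FPKM with PBS, and was not called (limma, log2 fold change 0.08, adjusted p = 0.491).

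Adaptors and ubiquitin ligases of the receptors, in a list that also holds Tnfaip3, Tnip1, Tank, Cyld and Otulin, had 17 genes tested. Of these 10 were higher, 4 lower and 3 not called, with a median log2 fold change of 0.32. Of all genes tested, 18.4% were higher and 35.6% lower. After median-of-ratios scaling 10 were higher and 1 lower. Quantile normalization gave 9 higher and 1 lower. Without any 1 K7M2-EV library 2 were lower, and without any 1 PBS library 1 was. Birc3, a ubiquitin ligase gene of the receptor complex, was at 31.1, 26.8 and 29.8 FPKM with vesicles and 4.32, 3.72 and 3.60 FPKM with PBS, a log2 fold change of 2.63 (limma, adjusted p = 4.12e-06). Tnip1, a partner gene of the NF-κB brake Tnfaip3, rose by 2.04. Traf1, an adaptor gene, rose by 1.60 and passed the filter through its vesicle libraries alone. Traf6 fell by 0.38 and held its call when any 1 library was left out. Fadd, the death-domain adaptor gene used by Fas, had -0.29. Its call was lost without any 1 PBS library or without K7M2-EV replicate 3 (adjusted p = 0.0510 to 0.0819), after either other scaling and with no filter (0.0564). Traf5 had -0.21, a call lost without any 1 library except K7M2-EV replicate 3 (adjusted p = 0.0688 to 0.125), after either other scaling and with no filter (0.0653).

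Receptor-proximal kinases and death effectors had 4 higher, 6 lower and 8 not called of 18 tested, with a median log2 fold change of -0.06. These counts lie near the shares of all genes tested, 18.4% higher and 35.6% lower. After either other scaling 4 were higher and 2 lower. Without K7M2-EV replicate 1 or PBS replicate 3 there were 2 lower, and without K7M2-EV replicate 3 or PBS replicate 1 there were 3. Cflar, which encodes the caspase-8 inhibitor FLIP, was at 30.6, 24.8 and 26.3 FPKM with vesicles and 8.65, 8.50 and 8.92 FPKM with PBS, a log2 fold change of 1.54 (limma, adjusted p = 2.43e-05). Map3k8, a kinase gene upstream of ERK, rose by 1.00, and Mlkl, the pore-forming effector gene of necroptosis, by 0.75. Bid, whose product links death receptors to mitochondria, had -0.47, with an adjusted p of 0.0505 in limma without PBS replicate 3. Tab1, an adaptor gene of the kinase TAK1, had -0.30 and lost its call without K7M2-EV replicate 1 or 3 (adjusted p = 0.0644 and 0.0566) and after either other scaling.

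Genes of ligand shedding and Tnf mRNA control had 5 higher, 9 lower and 2 not called of 16 tested, with a median log2 fold change of -0.29. Of all genes tested, 18.4% were higher and 35.6% lower. After median-of-ratios scaling 6 were higher and 6 lower. Zc3h12a, which encodes the mRNA-cleaving enzyme regnase-1, was at 49.2, 47.7 and 53.5 FPKM with vesicles and 8.88, 7.21 and 7.90 FPKM with PBS, a log2 fold change of 2.51 (limma, adjusted p = 4.80e-06). Rhbdf2, whose product iRhom2 carries the TNF sheddase to the cell surface, rose by 1.12. Mapkapk2, a kinase gene that stabilises Tnf mRNA through its targets, rose by 1.03. Zfp36l2, an mRNA-decay factor gene, fell by 1.06 and Furin, a protease gene that processes several ligands of the family, by 0.51. Zfp36l1 had -1.29 and lost its call without K7M2-EV replicate 1 or PBS replicate 2 or 3 (limma, adjusted p = 0.0523 to 0.0790) and with no filter (0.0571). Zfp36, whose product tristetraprolin binds Tnf mRNA and which was picked with its values in view, was at 16.6, 15.3 and 16.6 FPKM with vesicles and 18.2, 15.4 and 15.8 FPKM with PBS and was not called (limma, adjusted p = 0.851).

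**Figure D5:**
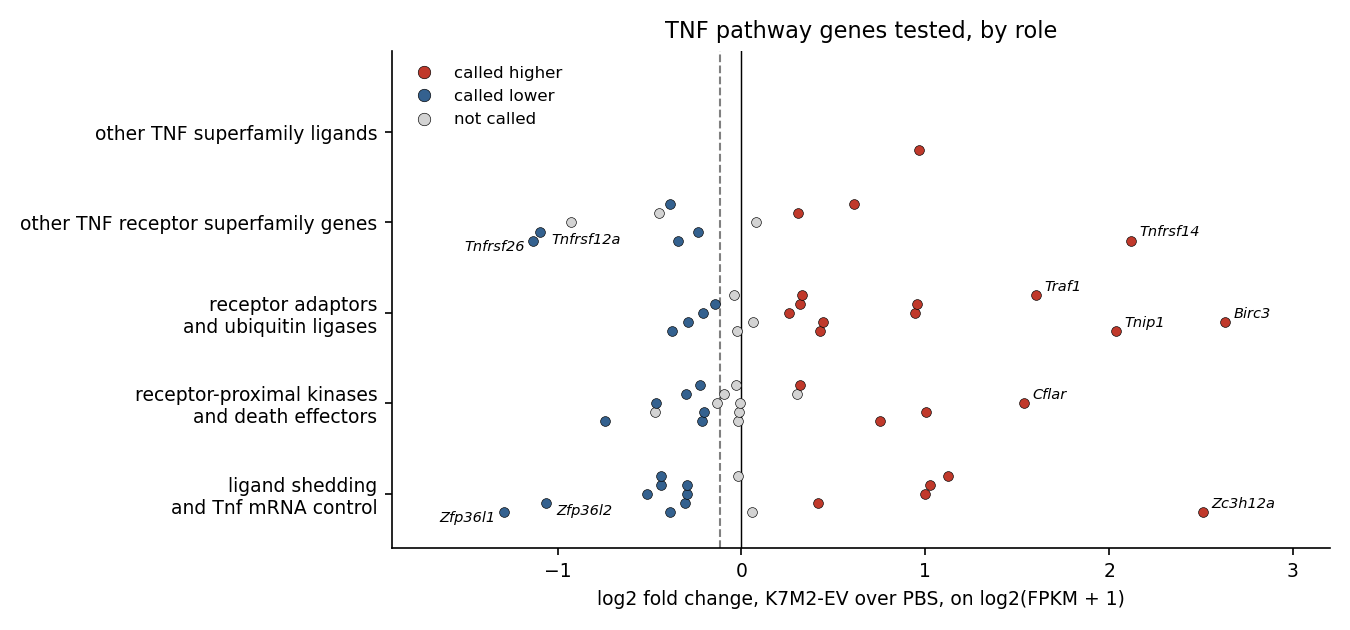
Log2 fold change, K7M2-EV over PBS, of tested pathway genes in 5 lists by role, 1 point per gene (red called higher, blue called lower, grey not called). The dashed line is the median of all genes tested, -0.12. Birc3, at 2.63, and Zc3h12a, at 2.51, lie farthest to the right.

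The libraries were of macrophages by their markers. All 12 macrophage genes listed reached 1 FPKM, and their sum was 13727 to 15236 FPKM with vesicles and 5031 to 6173 FPKM with PBS. The sum was mostly Lyz2, at 9827 to 11486 FPKM with vesicles and 3283 to 3991 FPKM with PBS. The 12 did not move together, with 8 called higher and 1 lower, beside 18.4% and 35.6% of all genes tested. Adgre1 was at 1617 to 1965 FPKM with vesicles and 140 to 194 FPKM with PBS. Cd68 went the other way, at 195 to 216 FPKM with vesicles and 370 to 436 FPKM with PBS. Of T and NK cell genes 6 were measured, and their sum stayed at or below 0.406 FPKM in every library. The B-cell genes Cd79a, Ms4a1 and Pax5 were at or near 0, while the 5 measured summed to 2.49 to 2.95 FPKM with vesicles and 3.71 to 4.41 FPKM with PBS, mostly from Cd22 and Cd79b. Dendritic-cell genes, 6 measured, summed to 0.587 to 0.784 FPKM with vesicles and 0.120 to 0.318 FPKM with PBS. Neutrophil genes, 9 measured, summed to 54.7 to 68.9 FPKM with vesicles and 5.77 to 7.48 FPKM with PBS, mostly S100a8 and Mmp8, with Ly6g and Mpo at or near 0. Stromal and osteoblast genes, 12 measured, summed to 289, 670 and 278 FPKM in K7M2-EV replicates 1 to 3 and to 142, 342 and 156 FPKM in PBS replicates 1 to 3. Replicate 2 was thus the highest of each group in stromal genes and the lowest in Tnf and Tnfrsf1b. Where the RNA of these genes of other cell types came from was not measured, and its part in the results was not tested. In bulk RNA, a change in the number of cells of a type and a change in RNA per cell cannot be told apart.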

How the data were processed

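RNA of 6 macrophage libraries, 3 per group, was sequenced after TRIzol isolation and NEBNext library preparation, per the labels' protocols. The authors deposited FPKM values, 1 table of 26883 rows per library. Per the submitters' processing notes, the build was GRCm38 and the tools were edgeR, StringTie 1.3.4b, HISAT2 2.1.0 and CASAVA 1.8, without the role of each. The strand setting and the assignment of reads shared by genes are not given in the sources used here. A row without a value (1) was dropped, and 47 rows that repeated a symbol with a lower mean were left out.

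Gene models came from GENCODE M21 (GRCm38), matched by symbol for 99.5% of genes. FPKM times exon length stepped in whole reads for 72.2% to 73.1% of low values (within 0.1), which implied 21338400 to 25691360 reads per library. For 6 of the 10 genes a single effective length gave whole reads in all 6 libraries within 0.08, and those reads are printed. That length exceeded the exon length of the gene model for Tnfsf13 (2576 against 1637 bases) and Tnfsf13b (10848 against 6868). The same held for Tnfrsf9 (4276 against 2722) and Cd40 (5531 against 3406). The reads printed for these genes are therefore estimates, higher than the gene model implies. For Tnf, reads are estimates from the gene model. Read numbers depend on the length used and on the implied reads per library, both of which are estimates, and carry counting error as well.

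FPKM are not counts, so no count test was run. A gene entered the fit if 3 or more libraries reached 1 FPKM (13009 genes), and limma 3.58.1 (R 4.3.3, statmod 1.5.0, robust eBayes with a trend) was run on log2(FPKM + 1). Fold changes of low genes come out too small on this scale. Tables and figures were made with pandas 2.3.3, numpy 2.4.6, matplotlib 3.10.9 and Python 3.11.15. Other pseudocounts, filters, scalings, a replicate block and left-out libraries were tried.

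The 10 genes and the 5 pathway lists were chosen with earlier results of these data known. All 10 were named, with the 3 largest called rises and falls of each list. One gene that this rule names is not reported here. Deviations of same-numbered libraries from their group means correlated across genes (0.317, 0.294 and 0.209), in every case most strongly within a number. For that reason libraries were treated as paired by number in the alternative with a block. This basis is in the data and not in a label. The main fit had no block.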

Additional observations from a re-analysis of the deposited data

How the results depend on the processing

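The 6 called genes of the family kept their direction and call under all 17 alternatives, with log2 fold changes of 3.50 to 3.80 for Tnf, 1.59 to 3.28 for Cd40, 1.54 to 2.02 for Fas, 1.16 to 1.43 for Tnfrsf1b, -1.56 to -1.32 for Tnfsf12 and -2.67 to -1.40 for Tnfsf13. Fits with libraries left out kept the genes of the main fit, and the filter was not applied again. Cd40 reached 1 FPKM in its vesicle libraries alone and Tnfsf13 in its PBS libraries alone. Both had to differ between the groups to be tested, and without 1 of those libraries each would fall below the filter. Of 136 values recomputed for the 8 tested genes, 4 turned sign and 1 became a call. Tnfsf9 was 0.024 with quantile normalization, 0.0012 without PBS replicate 2 and 0.14 without replicate 2 of both groups, and its range with libraries left out was -0.44 to 0.14. Tnfrsf1a was 0.058 after median-of-ratios scaling and -0.16, a call, after quantile normalization. The cause was not tested. With the replicate block, Tnf had 3.59 (limma, adjusted p = 3.67e-05), and the pairing changed no call among the 8 tested genes of the family or the 25 list genes chosen by size of change, and none of the list counts moved by over 1.5 times. The block left the receptor ratio at 1.38 (exact sign-flip test, p = 0.25, the smallest possible).

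Of 204 list counts recomputed, 29 moved by over 1.5 times. With no filter 2 other ligand genes were higher and 2 lower, and adaptors had 1 lower. With a filter on the mean, 0 other ligand genes were higher, since Ltb was no longer tested (limma, also 0 lower). After median-of-ratios scaling the lower calls were 3 among other receptors, 1 among adaptors and 2 among kinases and death effectors, and after quantile normalization 1 among adaptors and 2 among kinases. With 1 library left out, the lower calls ran from 3 to 7 for other receptors, 1 to 2 for adaptors and 2 to 5 for kinases, and with a replicate left out of both groups from 1 to 7, 1 to 1 and 1 to 5. Without replicate 3 of both groups adaptors had 6 higher, and all genes 1531 higher and 2847 lower.

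With 3 libraries a group, an exact permutation test cannot go below p = 0.1. Tnfsf13b and Tnfrsf9 rest on few reads, and PBS levels of Cd40 on an estimated 19 to 29 reads per library.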
